A study of Mus musculus with 4 samples.

Results

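The 6 genes described here, Hprt, G6pdx, Pdha1, Gla, Ogt and Huwe1, are X-linked housekeeping and disease genes known to be silenced on the inactive X. They were taken as a fixed list of 6 among 966 protein-coding genes of chromosome X, each placed by the midpoint of its RefSeq gene in a 250 kb and a 100 kb bin of mm10. Of the 966, 851 had their midpoint in a 250 kb bin with data. All 6 midpoints fell in bins with data in every matrix. Silencing itself was not measured: the deposited values describe chromosome folding only, so the label of the list could not be checked against expression.

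Female tail tip fibroblasts (TTF), skin-derived connective tissue cells, of mus/cas hybrid mice were studied by Hi-C, in which DNA ends that are neighbours in the nucleus are joined and read as pairs. Of 4 samples, 2 were Sirt7-/- (KO) and 2 wild-type (WT), with no treatment, age or separate animal of origin named in the labels. Before deposit the replicates of each genotype were combined and the reads were split between the mus and the cas copy of chromosome X, which gave 8 matrices, 1 for each genotype, copy and bin size. The labels do not say which copy was inactive, and the matrices hold no measure of Sirt7, so neither the inactive copy nor the genotype could be checked.

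In a female cell the noncoding RNA Xist coats a copy of the X, whose genes then lose transcription and gain DNA methylation at their CpG-rich promoters. The silenced copy is known to lose most of the alternation of active (A) and inactive (B) compartments seen on an active chromosome, and to part at the macrosatellite Dxz4 into a pair of large domains. SIRT7, a sirtuin, is an NAD-dependent enzyme that removes acyl groups from nuclear proteins.

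Of the metabolic genes, Hprt encodes the enzyme of purine salvage whose loss causes Lesch-Nyhan disease, G6pdx the enzyme that opens the pentose phosphate pathway, Pdha1 a catalytic subunit of the pyruvate dehydrogenase complex, and Gla the lysosomal alpha-galactosidase lacking in Fabry disease. Ogt encodes the transferase that adds O-GlcNAc to nuclear and cytosolic proteins, and Huwe1 a large HECT-type ubiquitin ligase. All lie on chromosome X. Hprt spans 52988078 to 53021660, G6pdx 74409483 to 74428880, Ogt 101640011 to 101684351, Gla 134588169 to 134601005, Huwe1 151800785 to 151935417 and Pdha1 160122219 to 160138430. Hprt and G6pdx lie left of Dxz4, at 22.7 Mb and 1.33 Mb from it, and the other genes lie right of it, at 25.9 Mb for Ogt, 58.8 Mb for Gla, 76.1 Mb for Huwe1 and 84.4 Mb for Pdha1.

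The bins hold other genes as well, which share every value given below. The 250 kb bin of G6pdx holds 16 protein-coding genes, among them Emd, that of Gla 7, among them Timm8a1 and Btk, that of Ogt 4 with Taf1, those of Hprt and Pdha1 2 each with Plac1 and Map3k15, and that of Huwe1 holds Huwe1 alone. Their median was 3, against 1 over all bins with data. At 100 kb, Hprt, Ogt, Huwe1 and Pdha1 have a bin to themselves, G6pdx shares with Ikbkg and Ctag2l1, and Gla with Timm8a1, Btk and Rpl36a.

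A shared feature that the list did not use is a CpG-rich start. In the 300 bases around the first listed start site of each gene (250 before and 50 after, RefSeq, GRCm38.p6), the 6 genes had 17 to 31 CpG dinucleotides, against a median of 7 over 1223 promoters of chromosome X. Of those 1223, 22.7% had 17 or more. The promoters with the most CpGs (Huwe1, 31) and the fewest (Gla, 17) are shown, with that of Hprt (22), whose start site lies in another bin than its midpoint. Capitals mark each CpG, read on the given strand; they show the letters of the reference only, since the matrices hold no measure at this scale. Huwe1 is at chrX:151803032-151803331 on the plus strand, Gla at chrX:134600956-134601255 on the minus strand and Hprt at chrX:52987828-52988127 on the plus strand.
Huwe1: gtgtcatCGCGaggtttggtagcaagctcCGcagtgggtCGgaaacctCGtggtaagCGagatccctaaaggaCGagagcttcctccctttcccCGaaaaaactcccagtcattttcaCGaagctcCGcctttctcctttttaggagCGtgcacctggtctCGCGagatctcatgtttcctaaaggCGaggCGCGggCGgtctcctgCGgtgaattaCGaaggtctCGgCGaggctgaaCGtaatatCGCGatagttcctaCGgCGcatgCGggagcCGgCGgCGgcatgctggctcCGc
Gla: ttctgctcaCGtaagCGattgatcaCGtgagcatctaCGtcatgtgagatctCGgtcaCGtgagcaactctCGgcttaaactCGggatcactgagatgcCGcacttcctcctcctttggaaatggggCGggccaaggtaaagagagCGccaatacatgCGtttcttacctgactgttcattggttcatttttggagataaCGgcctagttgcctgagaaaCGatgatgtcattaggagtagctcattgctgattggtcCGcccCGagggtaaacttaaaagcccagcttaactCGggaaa
Hprt: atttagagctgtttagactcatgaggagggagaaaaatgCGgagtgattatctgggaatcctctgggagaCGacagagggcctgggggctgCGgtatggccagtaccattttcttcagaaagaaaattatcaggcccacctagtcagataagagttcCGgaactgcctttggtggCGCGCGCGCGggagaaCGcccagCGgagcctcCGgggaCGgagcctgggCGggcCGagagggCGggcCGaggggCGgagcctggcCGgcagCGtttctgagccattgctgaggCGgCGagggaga

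Each entry of a matrix correlates the contacts of one bin with those of another along the chromosome: it is high where both bins contact the same parts of the chromosome. With 1 combined matrix for each genotype and copy there was no replicate error to set a difference against, so no test was run, and each statement below describes these matrices only. Read depth is unknown. As stand-ins for it, the mean entry of adjacent 250 kb bins ranged from 0.131 to 0.149 (mus) and from 0.184 to 0.196 (cas). The SD of entries at least 2 Mb apart ranged from 0.0581 to 0.0663 (mus) and from 0.116 to 0.130 (cas), with the lower value in KO for both copies. Values are from 250 kb bins and partners at least 2 Mb away unless another bin size is named. Bins with data in all 4 matrices of a size numbered 588 (of 683) for 250 kb and 1461 (of 1707) for 100 kb.

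The first question was where the 6 genes stand between the compartments on each copy. On cas every gene lay toward the A end, in WT and in KO, with Hprt and Ogt at or near the top of the chromosome. On mus all scores, taken with classes made from cas, were far smaller. On that copy's own scale Hprt was near the top in WT and Huwe1 in KO at 250 kb. The compartment score of a bin is its mean entry with class A bins minus that with class B bins, each class holding 118 bins (20%), those with the most extreme values of PC1 of the averaged cas matrices, and A being the gene-rich extreme. Since the cas matrices made the classes, and 5 of the 6 bins are in class A (all but that of Pdha1), the cas levels are a description of where these bins lie. The mus scores use the same cas classes, so the gap in score between the copies depends in part on that choice. Classes made from the mus matrices were not tried. All 6 scores were above 0 on cas in both genotypes, against 35.7% of all bins in WT and 33.5% in KO.

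On cas, Hprt had a score of 0.462 in WT and 0.416 in KO, rank 1 of 588 bins in both. Ogt had 0.427 and 0.372, ranks 2 and 4. G6pdx had 0.374 and 0.347, ranks 12 and 8, and Huwe1 0.334 and 0.320, ranks 27 and 16. Gla and Pdha1 stood lower. Gla had 0.205 in WT and 0.224 in KO, ranks 99 and 73, and Pdha1 had 0.199 and 0.121, ranks 104 and 144. In WT the order from Hprt to Pdha1 thus spanned 0.462 to 0.199, with no spread by which to say which neighbours in it differ. At 100 kb, where scores are smaller, the 6 genes were again all above 0 on cas, against 35.4% of all bins in WT and 34.6% in KO. They ran from 0.0575 for Gla to 0.141 for Hprt in WT and from 0.0461 to 0.120, for Gla and Ogt, in KO.

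On mus, the scores ran from -0.00451 for Ogt to 0.0442 for Hprt in WT, and from -0.00579 for G6pdx to 0.0472 for Huwe1 in KO. Hprt ranked 12 of 588 in WT and 54 in KO, G6pdx 67 and 346, Ogt 314 and 91, Gla 162 and 29, Huwe1 202 and 2, and Pdha1 157 and 102. Hprt in WT and Huwe1 and Gla in KO were above the 95th percentile of all bins on mus, 0.0377 in WT and 0.0280 in KO. The spread over all bins on mus had SDs of 0.0222 (WT) and 0.0180 (KO). On mus 5 of the 6 genes were above 0 in each genotype, against 45.7% of all bins in WT and 46.1% in KO. The gene at 0 or below was Ogt in WT and G6pdx in KO, so that the second highest score on cas in WT went with the lowest of the list on mus. At 100 kb Huwe1 in KO lay at the 96.0 percentile of the mus scores. Hprt in WT lay only at the 86.8 percentile and Gla in KO at the 68.7 percentile.

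**Figure D1:**
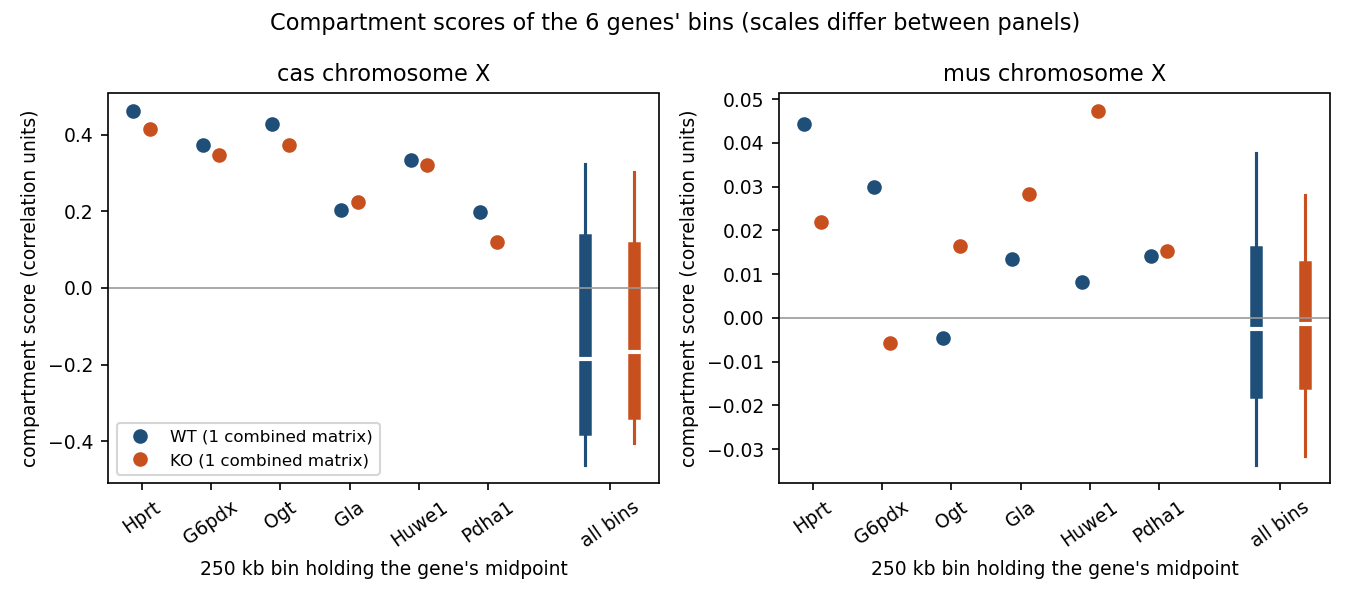
Compartment scores (vertical axis, correlation units, scales differ between panels) of the 250 kb bins of the 6 genes on cas and mus, blue for WT and orange for KO, 1 combined matrix each; bars at the right show the 5th to 95th percentile (thin), the middle 50% (thick) and the median (white) of all 588 bins. On cas all 6 genes lie above 0 and Hprt is highest in both genotypes, and on mus Huwe1 goes from 0.00827 in WT to 0.0472 in KO.

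As a comparison, 22 other X-linked housekeeping and disease genes were listed, of which Emd and Btk lie in bins of the 6 genes. The 17 bins of this list that hold none of the 6 genes had a median cas score of 0.242 in WT and 0.202 in KO. They are not all far from the 6 genes: the bin of Rps6ka3 lies 750 kb from that of Pdha1. The 12 genes that escape inactivation (11 bins) had 0.231 and 0.0946. The 6 genes had medians of 0.354 and 0.334, and all bins -0.184 and -0.167. On mus the medians in WT and KO were 0.0138 and 0.0192 for the 6 genes, 0.0180 and 0.0145 for the other housekeeping and disease genes, and 0.00966 and 0.0220 for the escape genes. The lists were not set against each other by a test.

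The second question was how these scores differed between KO and WT. On cas 5 of the 6 genes had a lower score in KO, all but Gla, against 39.1% of all bins and 75.4% of class A bins. Their differences were -0.0778 for Pdha1, -0.0549 for Ogt, -0.0460 for Hprt, -0.0272 for G6pdx and -0.0134 for Huwe1, with 0.0197 for Gla. The SD of the difference over all 588 bins was 0.0762, around a median of 0.0230. Without taking off that median, only Pdha1 passed the SD, at the 9.69 percentile of all bins. Ogt lay at the 16.0 percentile. The share of the 6 genes was near that of class A bins. After each matrix was divided by the SD of its entries, 2 of the 6 genes, Ogt and Pdha1, were lower in KO, against 47.8% of all bins and 46.6% of class A bins. The direction for Hprt, G6pdx and Huwe1 therefore depended on the scale of the matrices.

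Of the comparison lists, 15 of 17 bins of other housekeeping and disease genes and 10 of 11 escape bins were lower in KO on cas, with median differences of -0.0287 and -0.0584, against -0.0366 for the 6 genes. The lowest and highest of the first list were Rlim (-0.177), a ubiquitin ligase gene, and Rps6ka3 (0.0587), a kinase gene.

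On mus 2 of the 6 genes had a lower score in KO, against 47.3% of all bins. They were the genes left of Dxz4: Hprt went from 0.0442 to 0.0220 and G6pdx from 0.0300 to -0.00579. The 4 genes right of Dxz4 were higher in KO. Ogt went from -0.00451 to 0.0164, Gla from 0.0136 to 0.0284, Huwe1 from 0.00827 to 0.0472 and Pdha1 from 0.0141 to 0.0152. Over all bins, 85.3% of those left of Dxz4 and 22.8% of those right of it were lower in KO, so the genes went with their side of the chromosome. The SD of the difference over all bins was 0.0218, around a median of 0.00158. Without taking off that median, G6pdx at -0.0358, Huwe1 at 0.0390 and Hprt at -0.0222 passed the SD. Ogt at 0.0209 came near it, and Gla at 0.0148 and Pdha1 at 0.00114 did not reach it.

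At 100 kb the mus differences kept their direction for all 6 genes, so that 2 of 6 were lower in KO, against 50.8% of all bins. They ran from -0.00355 for G6pdx and -0.00253 for Hprt to 0.00649 for Ogt, with an SD of 0.00615 over all bins. On cas at 100 kb 5 of 6 genes were lower in KO, against 41.3% of all bins. The exception was G6pdx, at 0.00393, and Hprt had the lowest difference of the 6, -0.0323, at the 5.27 percentile. Pdha1, the lowest at 250 kb, had -0.00421 here, at the 33.3 percentile, with an SD of 0.0229 over all bins.

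Hprt needed care in its placement. Its midpoint lies 4.87 kb inside its bin, and its promoter, shown above, lies in the bin before it. That bin, 52750001 to 53000000, had cas scores of 0.0397 in WT and -0.0113 in KO, far under the 0.462 and 0.416 of the bin of the midpoint. At 100 kb the bin of the start site had 0.0896 and 0.0742, against 0.141 and 0.109. So the top rank on cas belongs to the bin that begins within the gene, and the start of the gene shows an A-side score of the same sign at 100 kb and no steady sign at 250 kb. The start site of Gla falls in another bin at 100 kb only, with cas scores of 0.0280 in WT and 0.0397 in KO. For Huwe1, whose body covers a pair of 100 kb bins, the bin of its other end had cas scores of 0.0619 and 0.0651, under the 0.108 and 0.0990 of the midpoint bin, and mus scores of -0.000663 and 0.00831.

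The neighbours of the genes showed which of them lie in a broad A region. Ogt lay in one: all 8 bins within 1 Mb had cas scores above 0 in both genotypes, against 35.7% of all bins in WT and 33.5% in KO. They ran from 0.241 to 0.422 in WT and from 0.157 to 0.361 in KO. To the right of Ogt, the bins at 1250 and 1500 kb were under 0, with -0.0973 and -0.0214 in WT and -0.227 and -0.121 in KO. Those at 1750 and 2000 kb were above 0 again. Around Hprt the signs were mixed, with 5 of the 8 bins within 1 Mb above 0 in WT and 3 in KO. For G6pdx, Gla, Huwe1 and Pdha1 6 of 8 were above 0 in WT, and 5 to 7 in KO. The 8 bins around Hprt ranged from -0.438 to 0.284 in WT and from -0.393 to 0.303 in KO. The score of Hprt exceeded their mean by 0.499 in WT and 0.453 in KO. For Ogt the excess over the neighbours was 0.0946 and 0.0975, and for G6pdx, Gla and Huwe1 it ranged from 0.144 to 0.185 in WT and from 0.151 to 0.182 in KO. Pdha1 stood 0.0410 above its neighbours in WT and had a value of -0.0478 in KO.

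The entries themselves, taken as the mean between a gene's bin and the bins within 1 Mb, gave the same picture on cas. For Hprt it was 0.0304 in WT (percentile 4.43 of all bins) and 0.0288 in KO (percentile 5.28). On its right, the entry of Hprt fell from 0.127 at 250 kb away to -0.203 at 750 kb and -0.245 at 1 Mb in WT, and from 0.110 to -0.126 and -0.200 in KO. At 1 Mb to the left the entry was 0.289 in WT and 0.288 in KO, so the bins most like Hprt nearby were not the adjacent ones. For Ogt the mean was 0.305 in WT and 0.251 in KO, ranking at percentile 85.7 and then 79.0, with entries of 0.191 to 0.377 in WT and 0.129 to 0.313 in KO.

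G6pdx had a dip to its right. The 4 bins to its left had entries of 0.169 to 0.343 in WT and 0.273 to 0.391 in KO, and the next bin on the right, toward Dxz4, had 0.0647 and 0.0133. The bin after that had 0.0449 and 0.00166, and those at 750 kb and 1 Mb had 0.133 and 0.138 in WT and 0.201 and 0.236 in KO. Gla had 0.0596 and 0.0544 as its mean, Huwe1 0.133 and 0.116, and Pdha1 0.102 and 0.111. Huwe1 was most like the bin on its right, with 0.345 in WT and 0.323 in KO.

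On cas 4 of the 6 genes had a lower mean with their neighbours in KO, against 58.9% of all bins, and on mus 5 of 6, all but Huwe1, against 74.8%. Both shares are near the background. The mus means were 0.0813 for Huwe1 to 0.172 for G6pdx in WT and 0.0864 to 0.140, for the same genes, in KO. Gla went from 0.158 to 0.0962, a difference at the 6.81 percentile of all bins on mus, and Hprt from 0.141 to 0.0947. On mus, all entries of the 6 genes with bins within 1 Mb were above 0 in both genotypes. Over all bins on mus the mean with neighbours had a median of 0.143 in WT and 0.118 in KO. The share of all such entries above 0 was not counted.

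**Figure D2:**
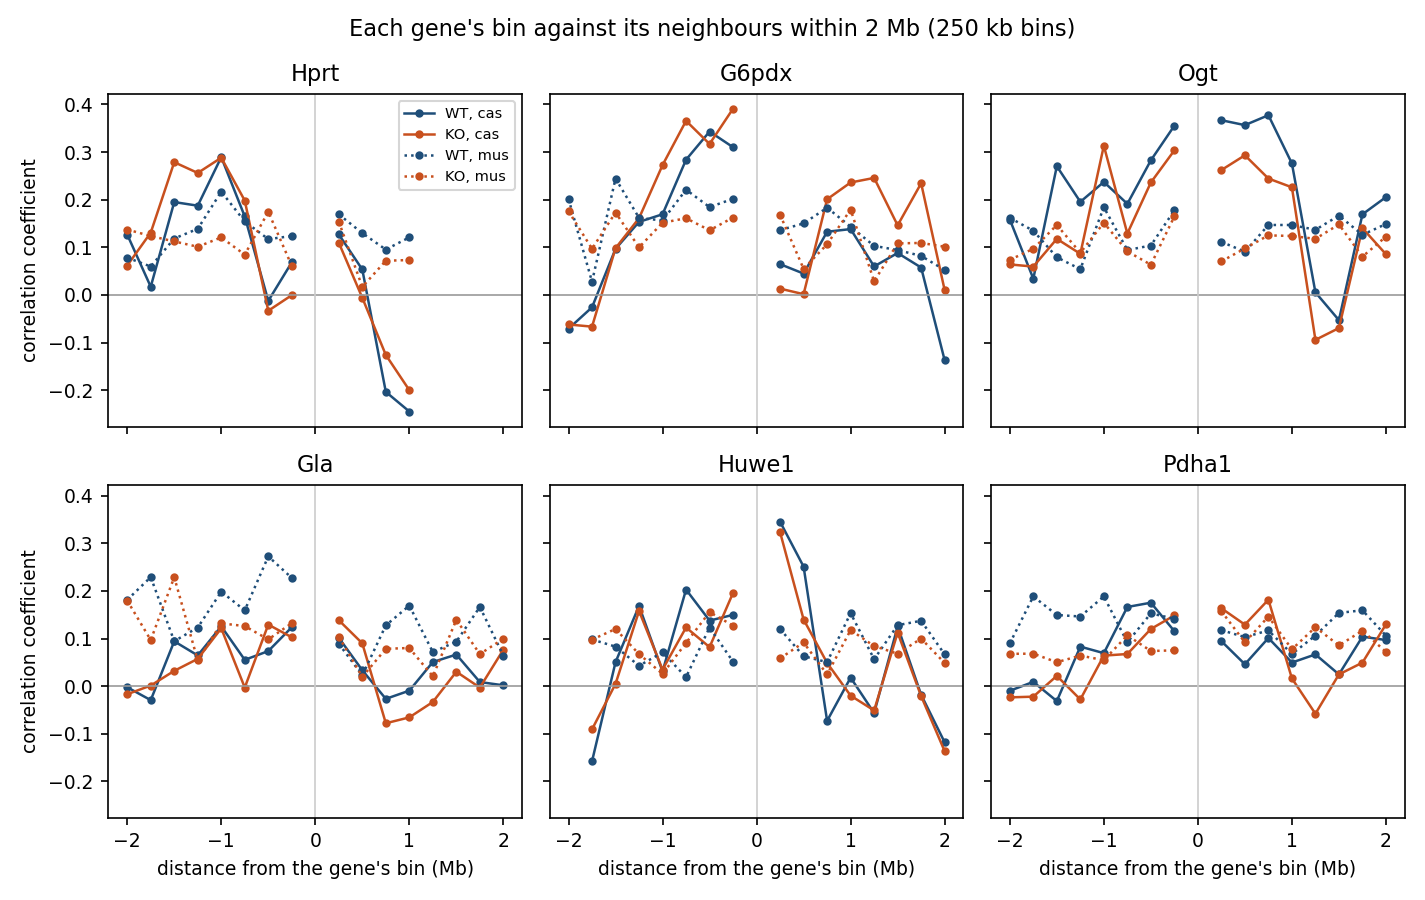
Entries (correlation coefficients, vertical axis) between each gene's 250 kb bin and the bins within 2 Mb (horizontal axis, Mb from the gene's bin), blue for WT and orange for KO, solid for cas and dotted for mus; bins without data have no point. On cas Hprt goes from 0.127 to -0.245 in WT within 1 Mb to its right, and Ogt keeps 0.191 or more within 1 Mb on both sides.

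By distance, the mean cas entry in WT was under 0 for 5 of the genes at 2 to 5 Mb, and for Pdha1 from 20 Mb on. For partners 5 to 10 Mb away the mean entry on cas in WT was -0.184 for Hprt, -0.176 for G6pdx and -0.0870 for Ogt, where all pairs had 0.0650, and in KO it was -0.169, -0.123 and -0.0543, where all pairs had 0.0613. Gla and Pdha1 had 0.0248 and 0.0433 in WT, and Huwe1 had -0.00895. Ogt reached its lowest mean at 10 to 20 Mb, -0.225 in WT and -0.190 in KO, and Huwe1 at 20 to 50 Mb, -0.128 and -0.103. On mus the means at 5 to 10 Mb were above 0 for all 6 genes. They ran from 0.0419 for G6pdx to 0.114 for Gla in WT, against 0.0833 over all pairs, and from 0.0162 for Huwe1 to 0.0842 for Ogt in KO, against 0.0718.

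The third question was how alike the 6 bins are to each other over long distances. On cas all 15 pairs had entries above 0, with medians of 0.138 (WT) and 0.168 (KO), where all pairs of bins had 0.0250 and 0.0235 and 57.9% and 57.8% of them were above 0. After the mean of its distance was taken from each entry, 14 of 15 pairs were above 0 in WT and 15 of 15 in KO, against 48.4% and 49.2% of all pairs. With the genes placed by start site, which moves only Hprt at 250 kb, these counts were 12 in WT and 13 in KO. The 6 bins are not independent of each other in these 15 pairs. Since 5 of the 6 bins are in class A, which was made from these same cas matrices, high cas entries among them follow in part from that. Pairs of class A bins were not counted as a background, so the cas counts describe where these bins lie. On mus 8 of 15 in WT and 10 of 15 in KO were above the mean of their distance, against 50.5% and 49.5% of all pairs, which is near the background in WT.

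On cas the likeness was strongest among Hprt, G6pdx, Ogt and Huwe1, a group picked after its values were seen. Their 6 pairs had entries of 0.264 to 0.352 in WT and 0.170 to 0.380 in KO, and the 9 pairs that include Gla or Pdha1 had 0.0435 to 0.181 and 0.0254 to 0.225. The highest in WT was Hprt with Ogt, 48.5 Mb apart and on opposite sides of Dxz4, with 0.352 in WT (percentile 99.5) and 0.334 in KO (percentile 99.7) among 390 pairs at that distance. G6pdx with Ogt had 0.335 and 0.380, and Hprt with Huwe1, 98.8 Mb apart, had 0.264 and 0.229. At 100 kb Hprt with Ogt had 0.156 and 0.102, but Hprt with Huwe1 went from 0.106 to 0.00923 and Hprt with G6pdx from 0.00328 to 0.115, so these pairs moved with the bin size.

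Between genotypes, 6 of 15 pairs on cas and 9 of 15 on mus were lower in KO, against 51.6% and 48.5% of all pairs. On cas all 5 entries of Gla were higher in KO, with a median of 0.0754 in WT and 0.133 in KO; at 100 kb 3 of 5 were lower, against 50.7% of all pairs. On mus 4 of the 5 entries of Huwe1 were higher in KO, all but that with Pdha1, with a median of -0.0127 in WT and 0.0820 in KO. Those with Ogt went from -0.0360 to 0.141, with Hprt from -0.0333 to 0.107 and with Gla from -0.0112 to 0.0820. At 100 kb none of the 5 entries of Huwe1 on mus was lower in KO, against 49.2% of all pairs, with medians of -0.0175 and 0.0265. For G6pdx on mus 4 of 5 were lower in KO, and that with Gla went from 0.116 to -0.0186; at 100 kb 2 of 5 were lower.

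**Figure D3:**
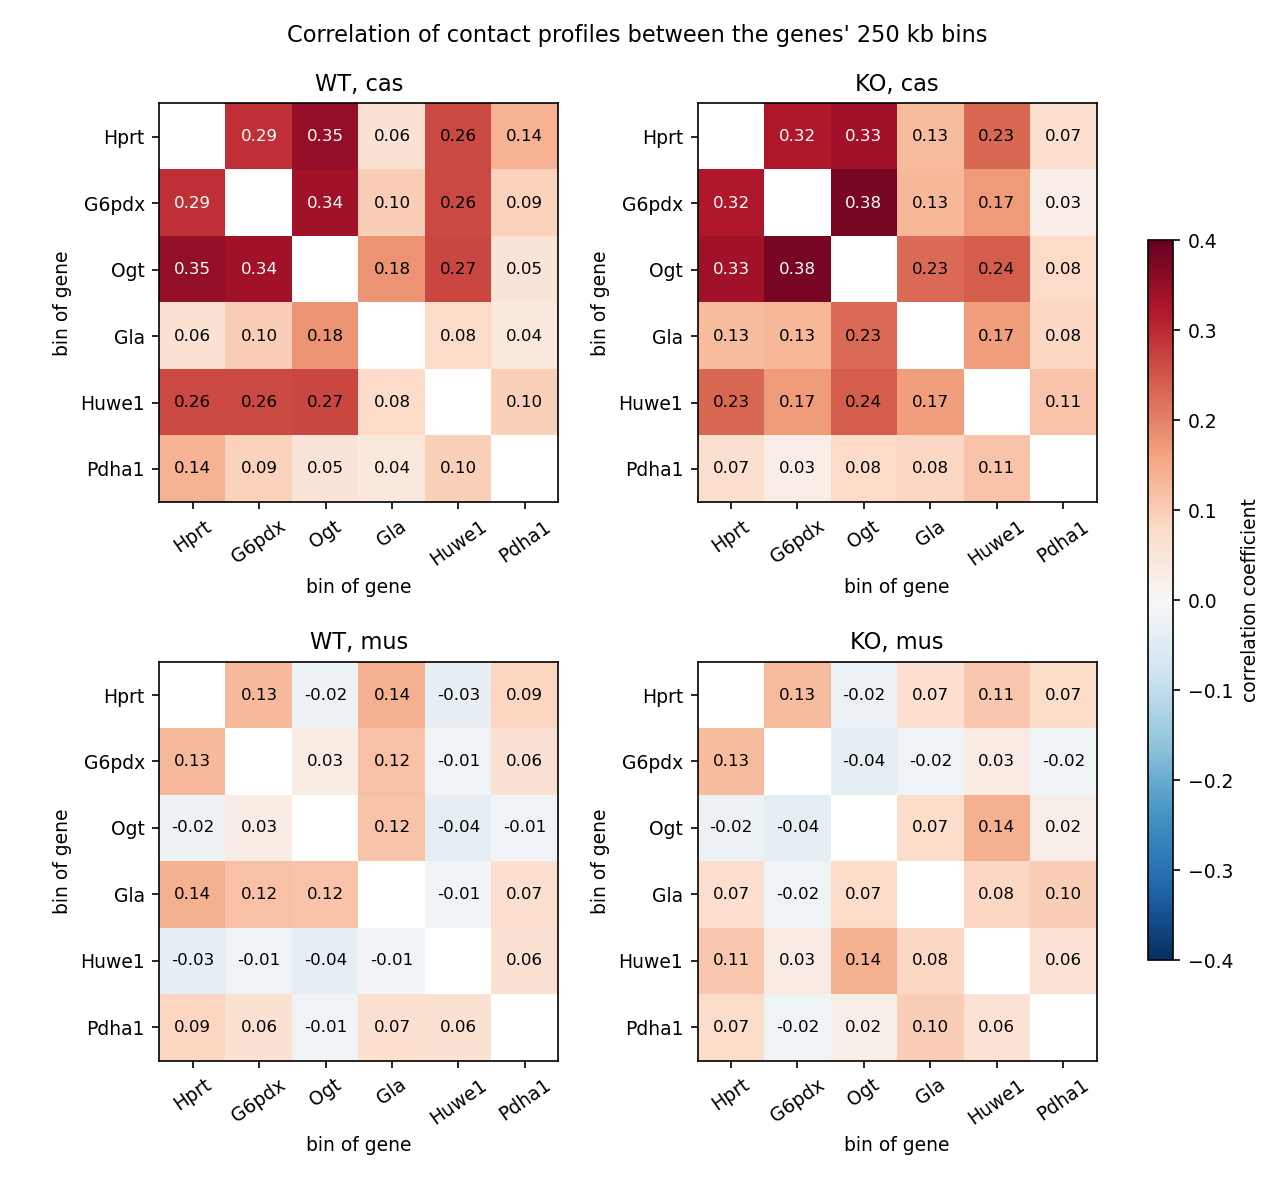
Entries (correlation coefficients, colour scale from -0.4 to 0.4) between the 250 kb bins of the 6 genes in the 4 matrices, genes on both axes in order along the chromosome. On cas all 15 pairs are above 0 in WT and KO, and on mus the row of Huwe1 has 4 entries under 0 in WT and none in KO.

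Each gene was also set against all gene-holding bins at least 10 Mb away, to name the bin most like it by the mean of the WT and KO entries. On cas G6pdx and Ogt were each other's choice, at 0.358 among 309 and 296 bins, over a distance of 27.2 Mb and across Dxz4. The choice of Gla was the bin of Ogt too, at 0.203, and Huwe1 and Pdha1 chose the bin next to that of Ogt, which holds Nhsl2, at 0.277 and 0.165. The bin of Ogt or its next bin, a target picked after these choices were seen, was the choice of 4 of the 5 other genes, against 10 of 356 gene-holding bins (2.81%) and 8 of 103 such bins of class A (7.77%). Hprt chose the bin of Zfx and Eif2s3x, at 94000001 to 94250000, with entries of 0.355 in WT and 0.388 in KO. Eif2s3x, a translation initiation factor gene, is known to escape inactivation.

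On mus the bins most like each gene were other ones, and none held a gene of the list. Hprt chose the bin of Fmr1nb (0.157), G6pdx that of Sox3 (0.140), Ogt that of Tab3 and Gk (0.142), Gla that of Xiap and Stag2 (0.204), Huwe1 that of Mamld1 (0.116) and Pdha1 that of Fsip2l (0.132). Only the bin chosen by Gla was in class A, whereas on cas all 6 were. Class A was made from the cas matrices and holds 5 of the 6 genes' own bins, which favours class A choices on cas. The share of such choices over all gene-holding bins was not counted.

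The fourth question was whether a gene's whole profile was the same in WT and KO. For each bin the entries with all partners in WT were correlated with those in KO; partners share libraries and lie next to each other, so r is a description. On cas r was 0.933 for Hprt, 0.926 for Ogt, 0.916 for G6pdx, 0.893 for Huwe1, 0.812 for Gla and 0.703 for Pdha1, over 573 to 576 partners, against a median of 0.848 over all bins. Hprt and Ogt lay at the 99.7 and 98.1 percentiles. With the genes placed by start site, which moves only Hprt at 250 kb, the median r of the 6 genes on cas went from 0.905 to 0.853. The genes with the lowest cas scores had the lowest r as well, and their profiles had the smallest spread of entries: the SD of the profile in WT was 0.0855 for Gla and 0.0843 for Pdha1, against 0.183 for Hprt.

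On mus r was lower for every gene, 0.445 for Ogt, 0.435 for Gla, 0.366 for Hprt, 0.30 for Pdha1, 0.271 for G6pdx and -0.0381 for Huwe1, against a median of 0.491 over all bins. All 6 lay under that median, and Huwe1 lay at the 1.02 percentile. At 100 kb r on mus was 0.0154 for G6pdx, 0.0111 for Huwe1 and 0.0993 to 0.191 for the other genes, with a median of 0.144 over all bins, and on cas it was 0.382 to 0.779 with a median of 0.494.

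**Figure D4:**
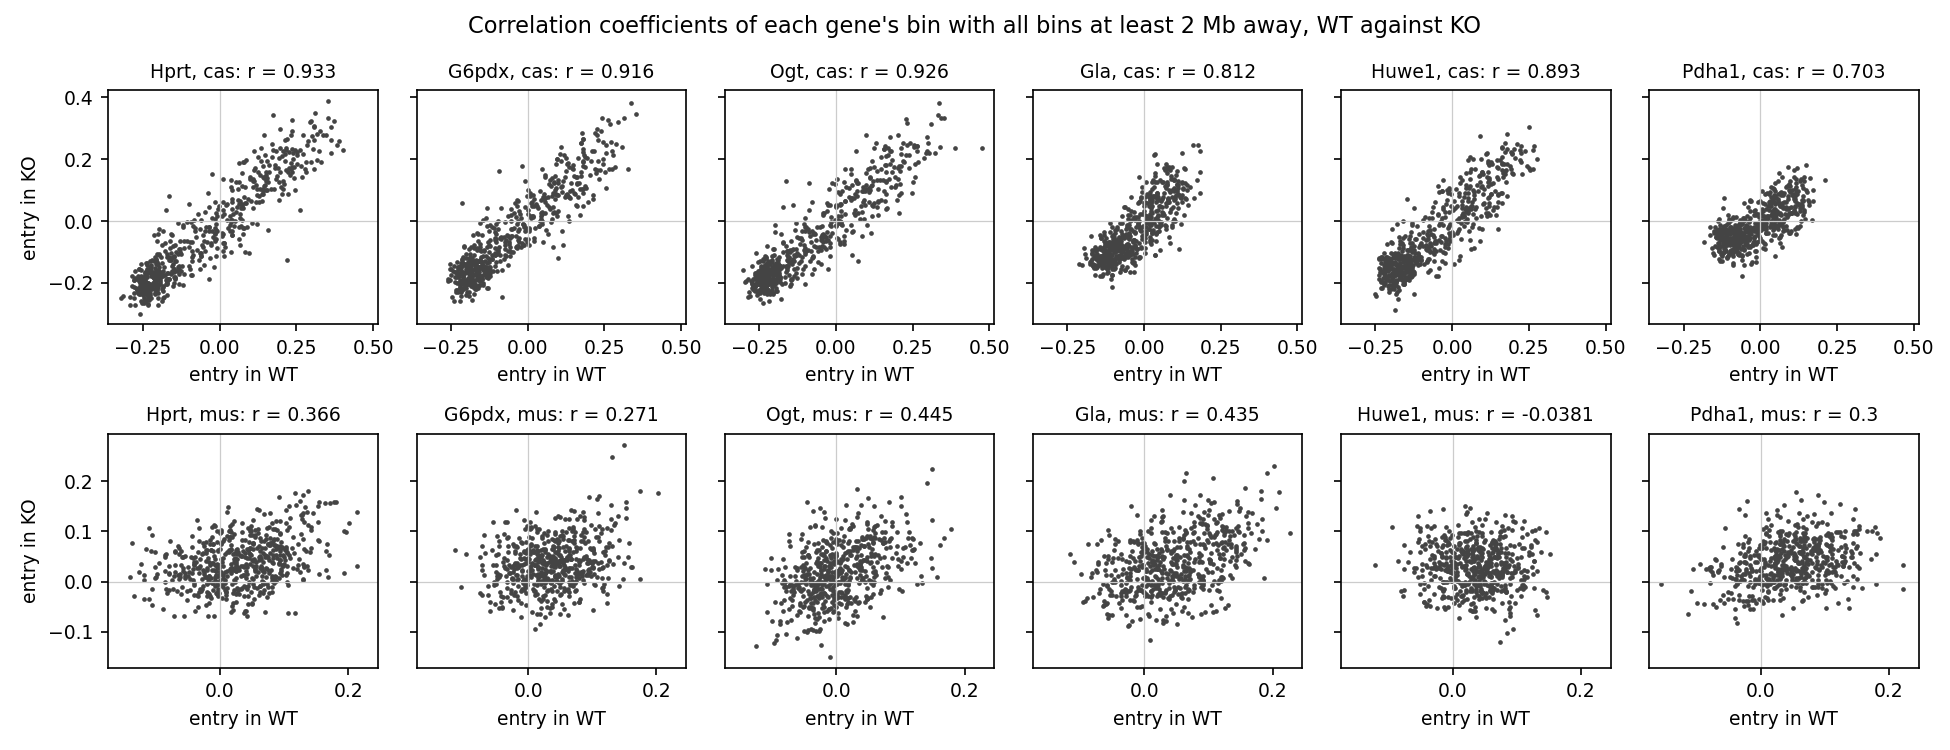
Entries of each gene's 250 kb bin with all bins at least 2 Mb away (points), WT on the horizontal and KO on the vertical axis (correlation coefficients), cas above and mus below, with r over the points in each title. The cas points lie along a line, with r from 0.703 to 0.933, and those of Huwe1 on mus form a cloud with r of -0.0381.

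By its 250 kb score and its profile, Huwe1 differed more between WT and KO on mus than the other 5 genes did. By the mean with neighbours it differed least, and by the 100 kb score less than Ogt, G6pdx and Hprt. Its 250 kb score went from rank 202 to rank 2 of 588 bins, its mean entry with A bins from 0.0333 to 0.0511 and that with B bins from 0.0250 to 0.00387. The 8 bins within 1 Mb had a mean mus score of 0.00705 in WT and 0.0254 in KO. None of the 8 was lower in KO, where 22.8% of all bins right of Dxz4 were, and the same held for the 8 neighbours of Ogt. At 100 kb 12 of 20 neighbours of Huwe1 were higher in KO, where 50.8% of all bins were lower. The share right of Dxz4 was not counted at 100 kb. The mus profile of Huwe1 correlated with its cas profile at 0.0324 in WT (26.5 percentile of all bins) and 0.304 in KO (95.9 percentile), and at 100 kb at 0.00747 and 0.0955. The spread of its mus profile in WT was small, an SD of 0.0477 at the 6.29 percentile of all bins, and its mean with neighbours was at the 6.98 percentile. The part of read depth in this difference was not tested. At 100 kb the score went from 0.00560 to 0.00805, rank 339 to 59 of 1461, a difference at the 66.3 percentile.

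For the other genes the mus and cas profiles correlated at 0.0208 for Ogt to 0.225 for G6pdx in WT and 0.0704 for G6pdx to 0.171 for Pdha1 in KO. The medians of all bins were 0.104 and 0.111.

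The last question was whether the genes followed the split at Dxz4, whose host transcript 4933407K13Rik spans 75725458 to 75764699. The own-side excess of a bin is its mean entry with bins on its side of Dxz4 minus that with bins across it, each entry taken relative to the mean of its distance. On mus, where a positive value means more likeness with the own side, it was 0.0288 in WT and 0.0113 in KO for Hprt, 0.0158 and 0.0228 for G6pdx, 0.00964 and 0.0362 for Ogt, 0.00253 and 0.00117 for Gla, -0.0151 and 0.00403 for Huwe1 and -0.0191 and -0.0114 for Pdha1. So 4 of the 6 genes in WT and 5 in KO were above 0, against 72.2% and 67% of all bins. The genes farthest from Dxz4, Huwe1 and Pdha1, had the lowest values in WT, at the 9.88 and 6.47 percentiles. In KO the excess was lower for 2 of 6 genes, Hprt and Gla, against 61.3% of all bins, and Ogt had the highest rise, at the 94.2 percentile of all bins. At 100 kb Ogt did not rise, with 0.00399 in WT and 0.00341 in KO, and Hprt went from 0.0159 to 0.00358.

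On cas the excess was above 0 for 1 of the 6 genes in both genotypes, against 14.3% of all bins in WT and 20.6% in KO, and it was lower in KO for 4 of 6, against 34.6%. The gene above 0 was G6pdx, with 0.0121 in WT (percentile 97.6) and 0.0100 in KO (percentile 93.2). Huwe1 lay at the opposite end, with -0.0718 in WT and -0.0830 in KO, at the 0.511 percentile in WT and the lowest of 587 bins in KO, and at 100 kb it was the lowest of 1460 bins in KO as well. Ogt had -0.0620 and -0.0634, at the 2.04 and 1.53 percentiles. In WT the own-side mean, relative to the mean of each distance, was -0.116 for Huwe1 and -0.142 for Ogt, and the mean across Dxz4 was -0.0440 and -0.0801, so both genes were under the mean of the distance on either side and further under it on their own.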

How the data were processed

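Hi-C libraries came from 2 WT and 2 Sirt7-/- TTF samples. The deposited values are scores (correlations of bin contacts on chromosome X), made by the authors from merged replicates and allele-assigned reads, per the file headers. Tools listed in the submitters' processing notes are HOMER, Juicer, Bowtie2 and cutadapt, with build mm10; versions, contact normalization, the allele rule and depth are absent from the sources used here. The series' design text speaks of Xist CHART-seq, but the labels and headers of these files of Hi-C. RefSeq midpoints on GRCm38 placed the genes. The 6 genes, the comparison lists and the measures were chosen with earlier results of these data known. Named were the 6 genes, genes sharing their bins, the genes of the most like gene-holding bin at least 10 Mb away (some in part), and list extremes. Bins lacking data in any matrix were left out. The classes, the compartment score, the own-side excess and the profile correlation were run on simulated matrices, the last on a matrix with itself only. The mean with neighbours, the squares and the rank correlation were not. Alternatives were 100 kb bins, a minimum distance of 5 Mb, division by the SD, the distance mean subtracted or plain entries, the weakest 10% of bins omitted, 30% classes, squares of 3 by 3 bins, rank correlation, and windows of 500 kb or 2 Mb; placement by start site was added after the data were seen. Python 3.11.15, numpy 2.4.6 and pandas 2.3.3 were used.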

Additional observations from a re-analysis of the deposited data

Results flagged for a closer look

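With 1 combined matrix for each genotype and copy, the differences below, which ran opposite ways on mus and cas, were not tested. The KO minus WT compartment score was 0.0209 on mus and -0.0549 on cas for Ogt, 0.0390 and -0.0134 for Huwe1, and 0.00114 and -0.0778 for Pdha1. At 100 kb that of Pdha1 was 0.000920 on mus and -0.00421 on cas. The mean entry with neighbours within 1 Mb differed by -0.0320 on mus and 0.0389 on cas for G6pdx, by 0.00510 and -0.0168 for Huwe1, and by -0.0246 and 0.00916 for Pdha1. The opposite directions did not hold in every setting: with 100 kb bins the neighbour differences were -0.00693 on mus and -0.00924 on cas for Huwe1 and 0.0121 and 0.0125 for Pdha1, and after division by the SD of entries the Huwe1 score was higher in KO on both copies, by 0.675 and 0.205 SD units. No gene of the list could be examined for an outlying replicate, since the replicates were combined.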

How the results depend on the processing

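No paired analysis was possible because each matrix already merges the replicates, and for the same reason no replicate could be left out. Of 86 recomputed counts and medians over the 6 genes, 81 stayed within 1.5 times the main count or, for profile correlations, within the SD over the 6 genes. Some of these could not change. The counts of pairs do not use the minimum distance, and those of pairs lower in KO do not use other bins that were left out. The limit is also wide: pairs lower in KO on cas went from 6 to 9 with 3 by 3 squares and stayed within it. After division by the SD of entries, 2 genes rather than 5 had a lower compartment score in KO on cas, and 2 rather than 4 a lower mean with neighbours. In that setting the cas score differences of Hprt, G6pdx and Huwe1 turned to 0.0456, 0.133 and 0.205, in SD units. With 100 kb bins the median r between WT and KO profiles went from 0.905 to 0.695 on cas and from 0.333 to 0.121 on mus, the cas score difference turned to 0.00393 for G6pdx and -0.0115 for Gla, and the own-side excess of Gla on mus in WT turned to -0.00225. Without the weakest 10% of bins, 1 gene rather than 2 had a lower own-side excess in KO on mus. The causes were not tested. Depth is unknown, so the counting error of these values cannot be given.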
